A study of Mus musculus with 24 samples.

Results

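Genes whose RNA moved the same way under chronic mild stress (CMS) in all 4 brain areas studied (amygdala, hippocampus, cerebral cortex and prefrontal cortex) are described here. CMS is a mouse model of depression in which animals meet changing mild stressors. The 12 CMS arrays come from wild-type male C57BL/6 mice that met stressors for 4 weeks, on 6 days of each, in 1 order for all mice, and the 12 control arrays from unstressed mice of the same strain and sex, both bought at 6 to 8 weeks of age and so older when tissue was taken. Each of the 8 groups, CMS and control in each area, holds 3 arrays of the Affymetrix Mouse Genome 430 2.0 type. The series' design names 3 CMS and 3 control mice, each giving all areas, while the methods name pooled RNA. The 24 arrays may therefore hold as few as 3 against 3 independent animals, for which the smallest exact two-sided p would be 0.1. The p-values below measure the spread between arrays. In the fit over all areas, that spread includes any difference of the CMS effect between areas. All 45037 probe sets other than the Affymetrix controls entered 1 fit with limma, with area as a factor and CMS against control as the effect shared by the areas, called the main effect. A probe set was called at a Benjamini-Hochberg adjusted p under 0.05. It was counted as shared where it was called and the 3 CMS arrays lay entirely above, or entirely below, the 3 control arrays in each area, in the same direction. There were 299 such probe sets of 45037, 168 higher and 131 lower with CMS.

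Neurons switch on immediate early genes, such as Fos and Npas4, within minutes of being active, by calcium-driven factors that bind their promoters, and these genes in turn switch on effectors such as Arc that adjust synapses. Heat shock proteins fold other proteins and are made under the control of heat shock factors. Circadian clock genes form a feedback loop in which CLOCK and BMAL1 drive the Per, Cry, Dbp and Ciart genes through E-box sequences, and nearly every cell type of the brain runs this loop.

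Each deposited log2 value is relative to the probe set's own median across all 24 arrays, so the table gives differences between arrays and no absolute level. Values of different genes are therefore not comparable as levels. A typical probe set had a standard deviation of 0.0334 to 0.0661 within a group (median, lowest and highest group). Hippocampal markers such as Prox1 were highest on hippocampal arrays and Otof was highest on amygdala arrays, as their labels imply, while Prkcd, listed for the amygdala, was highest in CMS hippocampus. Whole arrays were shifted slightly, and in opposite directions between areas. The median CMS minus control difference was 0.03 for amygdala, 0.02 for prefrontal cortex, -0.05 for hippocampus and -0.03 for cerebral cortex. All CMS arrays lay above all control arrays for 46.4% of probe sets in amygdala and 39.6% in prefrontal cortex, but for 8.67% in hippocampus and 12.6% in cerebral cortex. The main effect over all probe sets had a median of -0.01.

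The main effect was called for 2777 probe sets (6.17%), 1318 of them higher with CMS (2.93% of those tested) and 1459 lower (3.24%), and 8045 probe sets had an unadjusted p under 0.05. Of the called ones, 886 higher (1.97% of all tested) and 1057 lower (2.35%) had a difference of the same sign in every area. The shared probe sets were 0.373% of those tested among the higher and 0.291% among the lower. Their gene symbols named 109 genes higher and 110 genes lower. A further 32 of the higher and 7 of the lower shared probe sets had no gene symbol, 19% and 5.34%, beside 20.3% of all tested. With each array centred on its own median, 223 of the 299 were again shared, and all 299 were again called.

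Most shared changes were small. The median size of the main effect was 0.44 on the log2 scale, a 1.35-fold difference, and the range ran from 0.09 to 4.67. Only 18 higher and 11 lower shared probe sets exceeded a 1.5-fold difference in every area, and 4 higher and 2 lower exceeded 2-fold in every area. The 24 genes with the largest difference in their weakest area, 12 in each direction, are drawn by area in the plot of the largest shared changes.

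**Figure D1:**
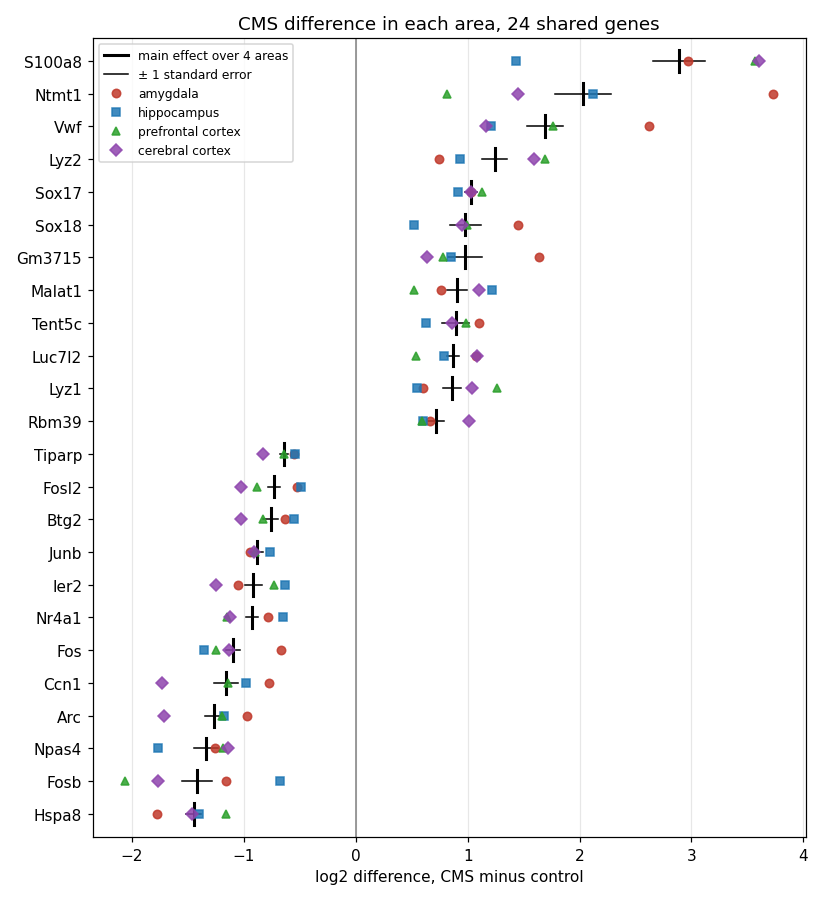
Log2 difference between CMS and control in each of 4 brain areas for 24 genes, each from 1 probe set, with the main effect over the areas (black bar) and ± 1 standard error. All points of the 12 upper genes lie right of 0 and all points of the 12 lower genes lie left of 0, with S100a8 at the top (2.89) and Hspa8 at the bottom (-1.45).

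Of the 12 largest shared decreases among probe sets with 1 gene symbol, 8 belonged to the list of activity-induced transcription factors and related immediate early genes. Among probe sets without a symbol, 1439290_at had a main effect of -1.28 ± 0.123 and 1418250_at one of -0.90 ± 0.0428, so decreases of this size were not limited to named genes. Of 34 activity-induced transcription factors measured, 18 were lower with CMS, 0 were higher, and 13 were lower with no overlap of arrays in any area. Over all 18193 genes the percentages called were 5.14% lower and 3.5% higher, and 0.473% were lower with no overlap. The list's median main effect was -0.23, beside -0.01 for all genes. In each area the list's median was below 0, from -0.11 (amygdala) to -0.34 (prefrontal cortex).

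Fos, the DNA-binding partner of Jun in the AP-1 factor and the standard marker of recent neuronal activity, was lower in every area. Amygdala values of Fos were -0.26, -0.51 and -0.44 with CMS and 0.26, 0.27 and 0.27 in controls, and hippocampal values were -2.14, -1.97 and -2.07 with CMS and -0.69, -0.78 and -0.62 in controls. Prefrontal values of Fos were -0.45, -0.42 and -0.39 with CMS and 0.81, 0.84 and 0.86 in controls, and those of the cerebral cortex were 0.31, 0.38 and 0.28 with CMS and 1.48, 1.42 and 1.46 in controls. The replicates within a group lay close together, and each gap between CMS and control arrays was wider than any spread within a group. The main effect was -1.10 ± 0.0637 (SE, 12 arrays against 12), a 2.15-fold lower level with CMS, with an adjusted p of 9.7e-10.

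Npas4, a factor induced by calcium entry that organises inhibitory synapses, was lower in every area too. Amygdala values of Npas4 were -0.93, -0.96 and -1.89 with CMS and -0.07, -0.02 and 0.08 in controls, and hippocampal values were -2.04, -1.58 and -2.35 with CMS and -0.18, -0.24 and -0.22 in controls. Prefrontal values of Npas4 were 0.22, 0.09 and 0.42 with CMS and 1.48, 1.42 and 1.41 in controls, and those of the cerebral cortex were -0.24, 0.11 and 0.02 with CMS and 1.26, 1.06 and 0.99 in controls. The third CMS amygdala array lay well below the other CMS arrays of that area, and no CMS array reached the controls. The main effect of Npas4 was -1.34 ± 0.11 (adjusted p = 1.52e-07), and no difference in size between areas was detectable (adjusted p = 0.203).

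Junb, another AP-1 member, had nearly the same decrease in each area, -0.94 in amygdala, -0.77 in hippocampus, -0.90 in prefrontal and -0.91 in cerebral cortex (main effect -0.88 ± 0.0543, adjusted p = 2.51e-09). Amygdala values of Junb were -1.05, -0.88 and -1.19 with CMS and -0.12, -0.17 and 0.00 in controls. Its difference between areas had an adjusted p of 0.742, so no difference in size was detectable. Fosb, whose stable splice form builds up with repeated stimulation, fell by 2.06 in prefrontal cortex and by 0.68 in hippocampus (main effect -1.42 ± 0.135). Nr4a1, an orphan nuclear receptor induced by activity, had a main effect of -0.93 ± 0.0514, with CMS arrays between 0.18 and 0.22 and control arrays between 1.30 and 1.32 in the cerebral cortex. Ier2, Btg2 and Fosl2 followed, with main effects of -0.92, -0.76 and -0.73. The second Fosl2 probe set was not called (-0.39, adjusted p = 0.26) and was higher with CMS by 0.135 in the hippocampus. The mean of the Fosl2 probe sets was not free of overlap in all areas. Btg2, an anti-proliferative gene also induced by neuronal activity, was shared by both of its probe sets, the second at -1.02. Egr2, a zinc finger factor, fell by 1.39 in the hippocampus and by 0.17 in the amygdala (mean of its probe sets, main effect -0.89 ± 0.106).

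**Figure D2:**
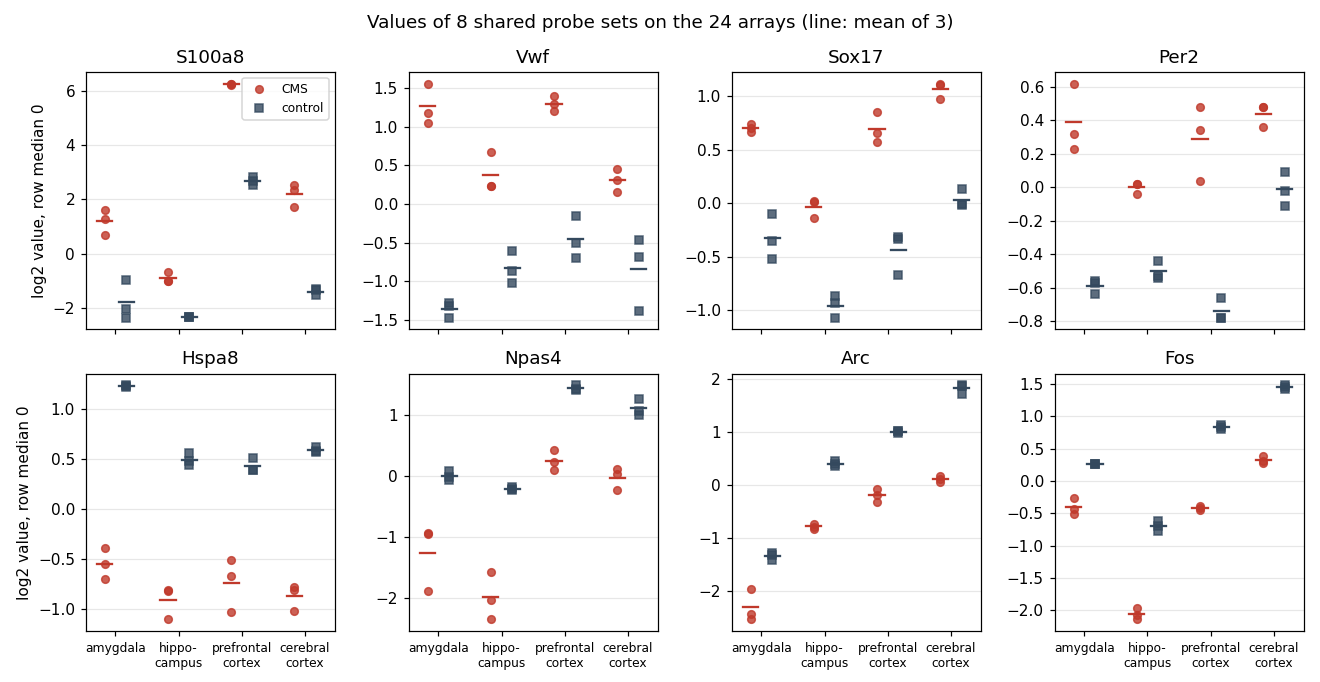
Log2 values, with the row median at 0, of 8 shared probe sets on the 24 arrays. In each area the 3 CMS arrays (circles) are left of the 3 control arrays (squares), and lines mark group means. The CMS arrays lie above the controls for S100a8, Vwf, Sox17 and Per2 and below them for Hspa8, Npas4, Arc and Fos in all 4 areas, while the baseline of each gene differs between areas.

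Some activity-induced effectors were lower too. Of 39 activity-induced effectors measured, 13 were lower, 0 were higher, and 9 were lower with no overlap in any area (median -0.11), and without the hippocampus 2 were higher and 11 lower. Arc, which carries its own RNA at synapses and removes glutamate receptors from them, came first. Amygdala values of Arc were -1.95, -2.53 and -2.43 with CMS and -1.27, -1.41 and -1.31 in controls, and hippocampal values were -0.78, -0.73 and -0.82 with CMS and 0.36, 0.41 and 0.46 in controls. Prefrontal values of Arc were -0.32, -0.18 and -0.07 with CMS and 0.98, 1.03 and 1.02 in controls, and those of the cerebral cortex were 0.07, 0.12 and 0.17 with CMS and 1.89, 1.87 and 1.73 in controls. The order of the areas was the same with CMS as in controls, amygdala lowest and cerebral cortex highest, and the gap was widest in the cerebral cortex (-1.71) and narrowest in the amygdala (-0.97). The main effect of Arc was -1.27 ± 0.0764, a 2.41-fold lower level with CMS (adjusted p = 1.88e-09).

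Among the other effectors, Ccn1, a matrix protein that binds integrins, fell by 1.73 in the cerebral cortex and by 0.77 in the amygdala in its shared probe set (main effect -1.16 ± 0.107), and 2 of its 4 probe sets were called. Gem, a small GTPase that restrains calcium channels, had a main effect of -0.81 ± 0.123. Tiparp, a mono-ADP-ribosyltransferase, was called by all 3 of its probe sets, from -0.81 to -0.54. Dusp1 and Dusp5, phosphatases that switch off MAP kinases, had main effects of -0.63 ± 0.0601 and -0.59 ± 0.0875. Dusp1 CMS arrays lay between 0.62 and 0.70 and controls between 1.41 and 1.55 in the cerebral cortex, while in the amygdala CMS arrays (-0.36 to -0.22) and controls (-0.12 to -0.04) were much closer. Gadd45b and Gadd45g, which act in DNA repair and demethylation, had main effects of -0.43 ± 0.0486 and -0.57 ± 0.0477.

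Promoters of 3 of the lower genes are printed because they hold a motif through which activity is known to switch on genes. The sequences are RefSeq promoter windows, 250 bases before to 50 bases after an annotated start, on the gene's own strand (GRCm38.p6), with motif letters in capitals. The motifs searched on both strands were the cyclic AMP response element TGACGTCA, the serum response element (by name), the heat shock element GAANNTTCNNGAA and the E-box CACGTG. In Btg2 (chr1:134079106-134079405, minus strand) the capitals mark a cyclic AMP response element at position -166 from the start, in Dusp1 (chr17:26508423-26508722, minus strand) a cyclic AMP response element at -143 and an E-box at -126, and in Dusp5 (chr19:53528895-53529194, plus strand) adjoining serum response elements at -82 and -72.
Btg2: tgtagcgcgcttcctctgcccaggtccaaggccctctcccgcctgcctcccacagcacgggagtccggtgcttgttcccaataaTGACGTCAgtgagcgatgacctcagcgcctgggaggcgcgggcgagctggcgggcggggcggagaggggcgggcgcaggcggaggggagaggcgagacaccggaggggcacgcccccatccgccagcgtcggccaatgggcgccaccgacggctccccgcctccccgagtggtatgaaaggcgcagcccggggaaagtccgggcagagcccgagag
Dusp1: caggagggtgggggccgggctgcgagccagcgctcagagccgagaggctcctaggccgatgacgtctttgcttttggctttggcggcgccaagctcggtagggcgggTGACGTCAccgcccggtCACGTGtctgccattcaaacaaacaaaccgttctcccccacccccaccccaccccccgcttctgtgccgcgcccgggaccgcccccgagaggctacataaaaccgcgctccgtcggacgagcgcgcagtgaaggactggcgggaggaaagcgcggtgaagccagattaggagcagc
Dusp5: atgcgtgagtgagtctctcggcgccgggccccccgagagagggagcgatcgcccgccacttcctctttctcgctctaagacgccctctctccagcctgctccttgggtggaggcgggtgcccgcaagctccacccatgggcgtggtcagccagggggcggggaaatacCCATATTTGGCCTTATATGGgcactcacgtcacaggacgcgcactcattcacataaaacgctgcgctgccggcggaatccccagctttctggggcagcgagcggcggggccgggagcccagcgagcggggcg
Of the 110 genes lower with CMS, 88 had a promoter in the table, with 111 windows. A cyclic AMP response element stood in 2.7% of these windows and in 1.79% of all 32851 windows, and a serum response element in 4.5% and 1.63%. Counted by gene, the cyclic AMP response element was found for 3 of 88 genes (3.41%, beside 2.03% of all 27025 genes) and the serum response element for 2, Dusp5 and Egr2 (2.27%, beside 1.81%), since 4 windows of Egr2 hold it. The windows of Fos, Fosb, Junb, Nr4a1 and Npas4 held none of the 4 motifs.

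Hspa8, the constitutive cytosolic Hsp70 that folds new proteins and strips clathrin from vesicles, had the largest decrease in its weakest area. Amygdala values of Hspa8 were -0.70, -0.39 and -0.55 with CMS and 1.22, 1.23 and 1.24 in controls, and hippocampal values were -0.82, -0.81 and -1.10 with CMS and 0.44, 0.48 and 0.56 in controls. Prefrontal values of Hspa8 were -0.51, -0.67 and -1.03 with CMS and 0.39, 0.51 and 0.39 in controls, and those of the cerebral cortex were -1.02, -0.81 and -0.78 with CMS and 0.58, 0.62 and 0.57 in controls. Every CMS array was below 0 and every control array above it, whatever the area. The main effect at this probe set was -1.45 ± 0.0697, a 2.73-fold lower level with CMS (adjusted p = 8.23e-11). The other Hspa8 probe sets moved less. Their main effects were -0.39, -0.15 and -0.07, the last of them not called (adjusted p = 0.24), so the size differed between probe sets of the gene.

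Of 40 cytosolic heat shock proteins and co-chaperones measured, 13 were lower and 1, Dnaja2, was higher (median -0.06). With no overlap in any area, Hspa8, Hspa1b, Hsph1, Dnajb2 and Cryab were lower. Hspa1b, the stress-induced Hsp70, had a main effect of -0.39 ± 0.0412 and was called by all 3 of its probe sets. Hspa1b CMS arrays in the hippocampus lay at 0.71 to 0.79 and controls at 1.06 to 1.18, so the hippocampus had the highest readings with and without CMS. Hsph1, an Hsp110 that exchanges nucleotide on Hsp70, was shared by both of its probe sets (-0.37 and -0.19). Cryab, a small heat shock protein of oligodendrocytes and astrocytes, had a main effect of -0.21 ± 0.0197. Of 24 endoplasmic reticulum chaperones and unfolded protein response genes, 5 were lower, 0 were higher, and 0 were without overlap in all areas, with Pdia3 at -0.21 and Calr at -0.13.

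The Hsph1 promoter (chr5:149636266-149636565, minus strand, RefSeq, GRCm38.p6) is printed because it holds the heat shock element searched. Capitals mark an E-box at -19 and, on the other strand at 15 past the start, the heat shock element, which 0.603% of all windows hold. Of the 88 lower genes with a promoter, Hsph1 alone held this element (1.14%, beside 0.662% of all genes). The windows of Hspa1b and of the co-chaperones Dnajb1 and Dnajb2, also lower, held no heat shock element.
Hsph1: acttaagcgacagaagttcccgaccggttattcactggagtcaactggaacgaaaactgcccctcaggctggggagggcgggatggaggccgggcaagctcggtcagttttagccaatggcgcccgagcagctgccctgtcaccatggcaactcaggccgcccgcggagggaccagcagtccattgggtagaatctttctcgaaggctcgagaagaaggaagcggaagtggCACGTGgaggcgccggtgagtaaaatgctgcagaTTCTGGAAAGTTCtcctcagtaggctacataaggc

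Among the increases, S100a8, a calcium-binding protein that neutrophils and monocytes carry in bulk, had the largest increase in the main effect among probe sets with 1 gene symbol. Amygdala values of S100a8 were 1.60, 0.68 and 1.29 with CMS and -0.97, -2.03 and -2.36 in controls, and hippocampal values were -0.68, -1.01 and -1.0 with CMS and -2.32, -2.32 and -2.33 in controls. Prefrontal values of S100a8 were 6.24, 6.27 and 6.22 with CMS and 2.53, 2.68 and 2.81 in controls, and those of the cerebral cortex were 2.33, 1.72 and 2.53 with CMS and -1.35, -1.32 and -1.54 in controls. The prefrontal arrays stood above those of the other areas in both treatments. The main effect of S100a8 was 2.89 ± 0.234, a 7.42-fold higher level with CMS (adjusted p = 1.32e-07), and it differed between areas (adjusted p = 0.000777). Its partner S100a9 rose by 2.57 ± 0.309, but by 0.30 in the hippocampus, where CMS arrays lay at -1.34 to -0.89 and controls at -1.41 to -1.39.

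Of the 22 neutrophil genes measured, 2, S100a8 and S100a9, were higher, and 0 were lower. The list's mean over its genes was 1.65 to 1.73 on CMS arrays and 0.34 to 0.36 on control arrays of prefrontal cortex. It was 0.11 to 0.18 with CMS and -0.18 to -0.12 in controls for amygdala, 0.13 to 0.20 with CMS and -0.17 to -0.13 in controls for cerebral cortex, and -0.11 to -0.08 with CMS and -0.12 to -0.10 in controls for hippocampus. This mean includes S100a8 and S100a9. The list's median CMS difference was 0.03 for amygdala, -0.03 for cerebral cortex, -0.05 for hippocampus and 0.225 for prefrontal cortex. Genes of olfactory and airway epithelium, another tissue, moved with the neutrophil genes on the prefrontal arrays. The mean of 16 such genes there was 2.25 to 2.47 with CMS and 0.44 to 0.46 in controls, while in the other areas it stayed between -0.09 and 0.10, and 0 of the 16 were called. Their part in the prefrontal rise of S100a8, S100a9 and Lyz2 was not tested. Because the table is centred it does not show which of these markers were near 0. In bulk tissue a change in the number of cells of a type and a change in RNA per cell cannot be told apart. Lyz2, the lysozyme of macrophages, neutrophils and microglia, rose by 1.24 ± 0.109 (adjusted p = 3.87e-07), with prefrontal CMS arrays at 1.53 to 1.74 and controls at -0.12 to 0.12. Lyz1, its close relative, rose by 0.86 and 1.04 at 2 of its 3 probe sets. The probes of such near-identical genes may share signal. Ctss, the microglial cathepsin S, rose by 0.33 ± 0.0369, and Ctss and Tyrobp were the 2 of 21 microglia and macrophage genes called, both higher. That list's mean overlapped between CMS and control arrays in the amygdala (0.18 to 0.41 and 0.19 to 0.22), and in the hippocampus it was lower with CMS (-0.29 to -0.23 and -0.20 to -0.11).

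Several genes of the blood vessel lining were higher with CMS. Amygdala values of Vwf, the clotting protein that endothelial cells store, were 1.56, 1.05 and 1.18 with CMS and -1.47, -1.28 and -1.32 in controls, and hippocampal values were 0.68, 0.23 and 0.23 with CMS and -0.86, -0.61 and -1.02 in controls. Prefrontal values of Vwf were 1.30, 1.20 and 1.40 with CMS and -0.70, -0.51 and -0.16 in controls, and those of the cerebral cortex were 0.31, 0.46 and 0.16 with CMS and -0.47, -0.68 and -1.38 in controls. All 12 CMS arrays were above 0 and all 12 control arrays below it. The main effect of Vwf was 1.69 ± 0.16, a 3.22-fold higher level with CMS (adjusted p = 1.27e-06).

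Sox17, a transcription factor of arterial endothelium, rose by about the same amount in each area. Amygdala values of Sox17 were 0.70, 0.74 and 0.67 with CMS and -0.10, -0.52 and -0.35 in controls, and hippocampal values were -0.14, 0.01 and 0.02 with CMS and -1.07, -0.93 and -0.87 in controls. Prefrontal values of Sox17 were 0.57, 0.66 and 0.85 with CMS and -0.32, -0.33 and -0.67 in controls, and those of the cerebral cortex were 1.11, 0.98 and 1.12 with CMS and -0.02, -0.01 and 0.13 in controls. The gap was 0.91 to 1.13 in each area, with no detectable difference between areas (adjusted p = 0.591). Its main effect was 1.03 ± 0.0506 (adjusted p = 9.15e-11), but the gene's second probe set stood at 0.18 and was not called. Sox18, a related endothelial factor, rose by 0.98 ± 0.138, and its CMS arrays ranged from 0.16 to 0.68 in the hippocampus, against -0.22 to 0.11 in controls. Cldn5, the tight junction protein of the blood-brain barrier, rose by 0.40 ± 0.0459 with no overlap in any area.

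Of 23 endothelial and mural cell genes, 6 were higher (Vwf, Flt1, Cldn5, Abcb1a, Abcg2 and Slc2a1) and 0 were lower, and 2 had no overlap in any area. The list's median was 0.03, and without the amygdala 7 genes were higher and 1 lower. Its mean over genes was 0.27 to 0.29 on CMS arrays and -0.08 to -0.05 on control arrays of amygdala. It was 0.21 to 0.31 with CMS and 0.07 to 0.16 in controls for prefrontal cortex, and 0.08 to 0.13 with CMS and -0.12 to 0.07 in controls for cerebral cortex. In the hippocampus the CMS (-0.28 to -0.23) and control arrays (-0.32 to -0.21) overlapped. The part of vessel content in the result was not tested.

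Several of the other largest increases came from RNA-binding proteins and a nuclear RNA. Rbm39, a splicing coactivator, was called by 5 of its 12 probe sets and shared by 3, all higher, at 0.72, 0.98 and 0.96. Luc7l2, a component related to the U1 snRNP, was called higher by 3 of 8 probe sets, the shared one at 0.87 ± 0.0555 (adjusted p = 4.51e-09). Malat1, a long noncoding RNA of nuclear speckles, was called higher by 3 of 7, the shared one at 0.90 ± 0.0915, with CMS hippocampus arrays at 0.91 to 1.13 and controls at -0.36 to 0.11. None of these genes had a probe set called lower, but most of their probe sets were not called. The lowest main effect was 0.10 for Rbm39, -0.03 for Luc7l2 and 0.21 for Malat1. The sign could differ between areas. Of the Malat1 probe sets, the shared one alone was higher with CMS in every area. A called one stood at -0.04 in prefrontal cortex and another at -0.06 in cerebral cortex, each being higher in the remaining areas. A called Luc7l2 probe set stood at -0.01 in prefrontal cortex and a called Rbm39 one at -0.07 there. Probe sets not called reached -0.47 for Malat1 and -0.37 for Rbm39, both in cerebral cortex. Of 36 splicing factors of the SR and hnRNP families, 8 were higher and 4 lower (median 0.02), and without the amygdala 1 was lower. Rbm39, Luc7l2 and Srsf11 were higher and Hnrnpl lower with no overlap in any area.

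Ntmt1, an enzyme that methylates the first residue of proteins, rose by 2.03 ± 0.247 at 1 probe set, by 3.73 in amygdala and 0.82 in prefrontal cortex, and its second probe set stood at -0.03. Tent5c, a poly(A) polymerase, rose by 0.89 ± 0.118 at 1 of its 2 probe sets, and the predicted gene Gm3715 rose by 0.98 ± 0.149. The largest increases of all belonged to probe sets without a gene symbol. Probe set 1447329_at rose by 4.67 ± 0.371 (7.21 in amygdala, 3.94 in hippocampus, 2.75 in prefrontal and 4.78 in cerebral cortex) and 1420310_at by 3.89 ± 0.438.

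The circadian clock genes moved in both directions. Of 21 measured, 6 were higher (Ciart, Per2, Dbp, Cry1, Nr1d2 and Per3) and 4 lower (Nfil3, Npas2, Per1 and Arntl), with a median of 0.07. Arrays did not overlap in any area for 5 of the higher genes, Nr1d2 being the exception, and for 1 of the lower, Nfil3. Among the lower genes, Arntl encodes BMAL1, Npas2 encodes a partner that can replace CLOCK, and Nfil3 represses the promoters that Dbp activates. Per1, like Per2 a target of CLOCK and BMAL1 and also an immediate early gene, was lower while Per2 was higher.

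Amygdala values of Per2 were 0.23, 0.32 and 0.62 with CMS and -0.56, -0.57 and -0.64 in controls at its stronger probe set, and hippocampal values were 0.02, -0.04 and 0.02 with CMS and -0.53, -0.44 and -0.54 in controls. Prefrontal values of Per2 were 0.34, 0.04 and 0.48 with CMS and -0.78, -0.66 and -0.78 in controls, and those of the cerebral cortex were 0.48, 0.48 and 0.36 with CMS and -0.11, 0.09 and -0.02 in controls. The gaps were 0.98 in amygdala and 1.03 in prefrontal cortex, and narrower, 0.50 and 0.45, in hippocampus and cerebral cortex. The main effect there was 0.74 (adjusted p = 1.82e-06), and the mean of the gene's 3 probe sets, all of them called, rose by 0.51 ± 0.0434.

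Ciart, a repressor of the loop also called Chrono, had the largest clock increase, 0.70 ± 0.0762 (adjusted p = 5.21e-06), and rose by 0.94 in hippocampus and 0.51 in prefrontal cortex. Hippocampal values of Ciart were -0.71, -0.47 and -0.65 with CMS and -1.76, -1.80 and -1.08 in controls, and those of the cerebral cortex were 1.02, 1.03 and 1.07 with CMS and 0.42, 0.55 and 0.14 in controls. The amygdala and prefrontal arrays did not overlap between CMS and control either. Dbp, a factor that carries the clock's output, rose by 0.48 ± 0.0475 and was shared by both of its probe sets. Cry1, a repressor of CLOCK and BMAL1, rose by 0.44 ± 0.0454, and Per3 by 0.27 ± 0.0292. Nfil3 had the largest change of the list, -0.96 ± 0.0934, with prefrontal CMS arrays at -0.26 to -0.17 and controls at 0.93 to 1.04. Arntl had a main effect of -0.20 ± 0.0308, but in the amygdala CMS (-0.06 to 0.01) and control arrays (-0.03 to 0.06) overlapped. The 11 clock genes not called included Clock (0.01) and Nr1d1 (0.10). The time of day at which the mice were killed is not given in the sources used here.

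**Figure D3:**
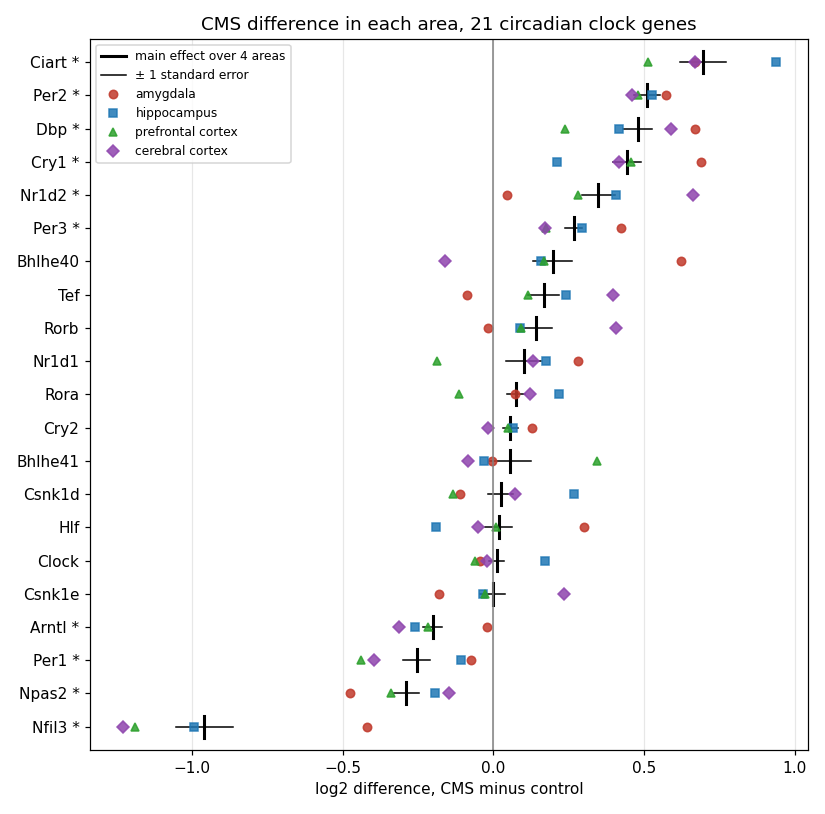
Log2 difference between CMS and control in each of 4 areas for the 21 circadian clock genes measured, each the mean of its probe sets, with the main effect (black bar) and ± 1 standard error. An asterisk marks the 10 genes called, which run from Ciart at 0.70 to Nfil3 at -0.96.

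The promoters of Ciart (chr3:95882179-95882478, minus strand) and Cry1 (chr10:85185005-85185304, minus strand) are printed because both hold the E-box that CLOCK and BMAL1 bind, again from RefSeq (GRCm38.p6). The capitals mark E-boxes at -116, -58 and -44 from the start in Ciart and at -60 in Cry1.
Ciart: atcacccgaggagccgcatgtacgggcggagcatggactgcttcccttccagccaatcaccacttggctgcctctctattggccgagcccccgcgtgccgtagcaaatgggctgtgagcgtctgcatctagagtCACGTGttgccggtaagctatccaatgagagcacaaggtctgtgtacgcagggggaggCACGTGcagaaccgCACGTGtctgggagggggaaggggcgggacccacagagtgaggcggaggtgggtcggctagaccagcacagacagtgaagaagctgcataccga
Cry1: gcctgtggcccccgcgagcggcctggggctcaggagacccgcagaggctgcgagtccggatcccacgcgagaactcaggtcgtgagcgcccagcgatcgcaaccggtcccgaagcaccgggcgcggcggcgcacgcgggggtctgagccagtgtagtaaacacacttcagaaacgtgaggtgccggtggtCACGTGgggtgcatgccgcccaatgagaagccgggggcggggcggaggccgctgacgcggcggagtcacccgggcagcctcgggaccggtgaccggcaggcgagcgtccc
Of the 109 genes higher with CMS, 88 had a promoter in the table, with 125 windows. The E-box stood in 13.6% of these windows, in 9.91% of the windows of the lower genes and in 7.15% of all windows. Counted by gene it was found for 14.8% of the higher, 11.4% of the lower and 8.09% of all genes. The windows of Dbp and Nr1d2, clock genes that were also higher, held no E-box.

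In the fit over all areas, antigen presentation and interferon-stimulated genes were higher where they were called. Of 13 antigen presentation genes measured, 6 were higher and 0 lower (median 0.15), and Cd74, H2-K1 and H2-D1 had no overlap in any area. The list's median was 0.15 for amygdala, 0.16 for prefrontal and 0.14 for cerebral cortex, but -0.01 for hippocampus. Without the cerebral cortex 5 were higher and 1 lower. Cd74, the chain that guides class II molecules of the major histocompatibility complex, rose by 0.79 ± 0.0924, by 1.20 in cerebral and 0.46 in prefrontal cortex. H2-K1 and H2-D1, class I molecules found on most cells, rose less at the probe sets called, and probes of these near-identical genes may share signal. Amygdala values of H2-D1 were 0.08, 0.10 and 0.03 with CMS and -0.28, -0.27 and -0.36 in controls, and hippocampal values were -0.11, -0.08 and -0.08 with CMS and -0.41, -0.40 and -0.37 in controls. Prefrontal values of H2-D1 were 0.71, 0.83 and 0.76 with CMS and 0.27, 0.40 and 0.37 in controls, and those of the cerebral cortex were 0.34, 0.41 and 0.29 with CMS and -0.17, -0.03 and -0.25 in controls. The gap was 0.30 to 0.50 in each area, and CMS and control arrays did not overlap. The main effect at this probe set was 0.40 ± 0.027, a 1.32-fold higher level with CMS (adjusted p = 9.19e-09). Of 9 H2-D1 probe sets 3 were called, all higher, and the lowest stood at -0.03. The weakest called one rose by 0.09 in amygdala and 0.55 in prefrontal cortex, so the size was not even across areas at every called probe set.

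Of 30 interferon-stimulated genes, 6 were higher and 0 lower (median 0.09). That list's median was 0.01 for hippocampus and 0.0974 to 0.125 for the other areas. Ifit3, an antiviral protein, rose by 0.41 ± 0.0664 and Rtp4 by 0.34 ± 0.0565. Rsad2, the antiviral enzyme viperin, rose by 0.22 ± 0.0335 and alone of the list had no overlap in any area. Without the cerebral cortex 3 of the 30 were higher. Of 30 NF-kB factors and inflammatory cytokines, 1 was called, Nfkbia, the inhibitor of NF-kB, at -0.27 ± 0.0438, and 4 of its 5 probe sets were called lower.

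Genes induced by glucocorticoids, the hormones of the stress response, were split. Of 34 measured, 5 were higher and 12 lower (median -0.05), and 2, Ddit4 and Cebpd, had no overlap in any area, both lower. Ddit4, an inhibitor of mTOR, had a main effect of -0.56 ± 0.0416 (adjusted p = 1.82e-08). Ddit4 CMS arrays lay at -0.46 to -0.25 and controls at 0.29 to 0.35 in amygdala, and CMS arrays at -0.59 to -0.50 and controls at -0.13 to -0.05 in cerebral cortex. Fkbp5, the chaperone that feeds back on the glucocorticoid receptor, rose by 0.26 ± 0.0351, and Slc2a1, the glucose transporter of vessels, by 0.28 ± 0.0476. Tsc22d3 and Sgk1, usually taken as targets of the same receptor, had main effects of -0.24 ± 0.0461 and -0.15 ± 0.0341, so the called members of the list did not move as 1 group. Of 13 stress hormone axis receptors and peptides 1 was called, Hsd11b1, which regenerates active glucocorticoid, at -0.25 ± 0.0521.

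Counts for basic machinery depended on the areas and scaling used. Over all genes in the deposited values 3.5% were called higher and 5.14% lower. For list counts under other settings, here and above, no share over all genes is given, so a change in them cannot be set against all genes. Of 72 oxidative phosphorylation genes, 5 were higher and 0 lower, but 14 were higher after quantile normalization, 25 without the hippocampus and 0 without the amygdala. In the deposited values 1 of 45 cytosolic ribosomal proteins was higher and 1 lower, and 14 were higher without the hippocampus. Of 73 mitochondrial ribosomal proteins, 0 were higher and 2 lower, and without the hippocampus 8 were higher. Of 38 proteasome subunits, 6 were higher and 1 lower, with 10 higher after quantile normalization and 2 without the cerebral cortex. None of these lists had a gene without overlap in all areas. Of 12 neurotrophins and receptors 1 was called, Ngfr at -0.26 ± 0.0398. Of 19 oligodendrocyte and myelin genes 5 were lower and 0 higher (median -0.17), with Opalin at -0.26 ± 0.0405, but 1 was lower without the amygdala, 11 without the cerebral cortex and 9 after quantile normalization. Of 18 glutamate receptors 2 were lower and 0 higher, with Grm2, a presynaptic receptor, at -0.46 ± 0.0955 and at -1.10 in the amygdala, without overlap in any area.

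**Figure D4:**
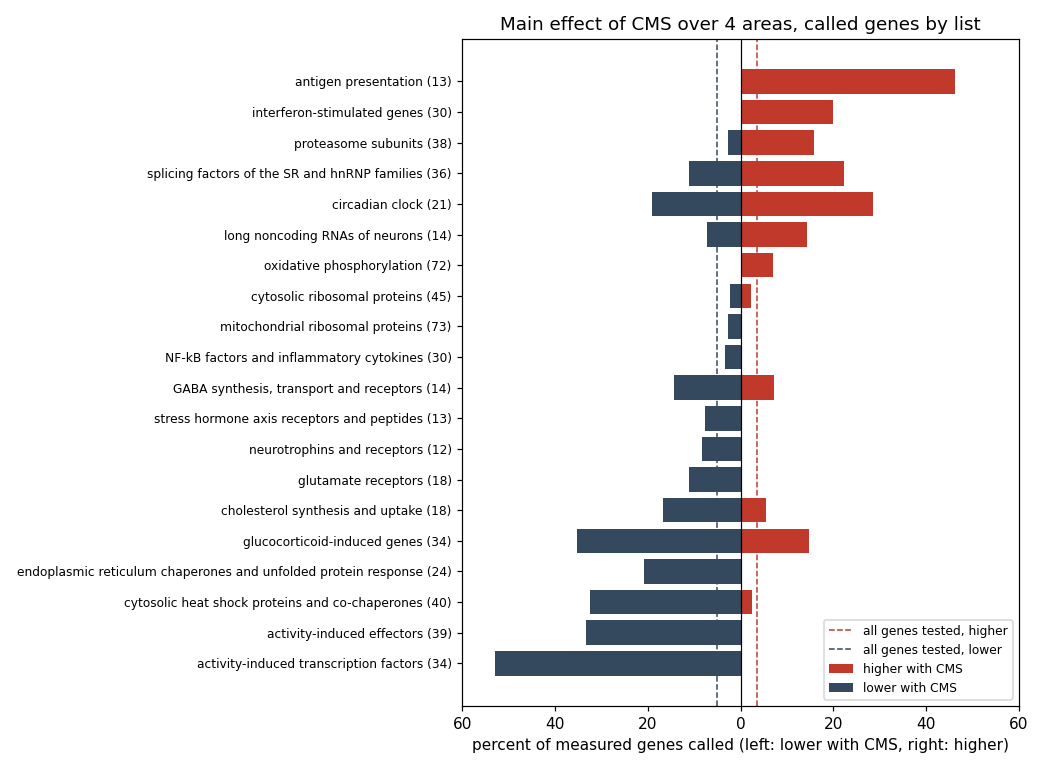
Percent of measured genes called for the main effect of CMS, to the right where higher and to the left where lower, for the 20 lists of responses and cell machinery with at least 10 measured genes (number in brackets), with lists of cell types and regions left out. Dashed lines mark all genes tested (3.5% higher, 5.14% lower). The activity-induced lists, chaperones and glucocorticoid-induced genes extend furthest left, and, of the lists drawn, antigen presentation, the clock and splicing factors furthest right.

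Many small changes held in every area. In 39 higher and 60 lower shared probe sets the difference was under 0.5 in each area, and in 61 higher and 77 lower the weakest area differed by under 0.2. The 6 with the smallest adjusted p in each direction are drawn by area in the plot of small shared changes. Besides H2-D1, the higher ones were Fam126b at 0.33 ± 0.0257, Slc38a2, a sodium-coupled neutral amino acid transporter, at 0.29 ± 0.0271, Nr1d2, a clock repressor, at 0.29 ± 0.0279, Ctss at 0.33 and the RNA-binding Hnrnpdl at 0.27 ± 0.0313. Slc38a2 CMS arrays lay at 0.10 to 0.22 and controls at -0.23 to -0.22 in prefrontal cortex, and CMS arrays at 0.30 to 0.36 and controls at 0.08 to 0.18 in cerebral cortex. The gap was 0.22 to 0.37 in each area. Not all probe sets of these genes were called. Called were 2 of 4 for Fam126b, 1 of 3 for Slc38a2 and 2 of 7 for Hnrnpdl, whose probe sets ran from -0.16 to 0.27 and whose mean was 0.06 with overlap. The other Nr1d2 probe set was called too, but stood at -0.27 in amygdala and 1.12 in cerebral cortex, so it was neither small nor shared.

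The lower ones were Fxyd7, a brain regulator of the sodium pump, at -0.33 ± 0.0235, Imp4, a ribosome assembly factor, at -0.42 ± 0.0389, Parm1 at -0.36 ± 0.0346, Rab11b, a GTPase of recycling endosomes, at -0.28 ± 0.0281, and the co-chaperones Dnajb1 at -0.24 ± 0.0237 and Dnajb2 at -0.25 ± 0.0252. Amygdala values of Fxyd7 were -1.09, -1.12 and -0.99 with CMS and -0.80, -0.75 and -0.87 in controls, and hippocampal values were -0.70, -0.59 and -0.63 with CMS and -0.28, -0.23 and -0.20 in controls. Prefrontal values of Fxyd7 were 0.20, 0.22 and 0.27 with CMS and 0.59, 0.54 and 0.67 in controls, and those of the cerebral cortex were 0.30, 0.33 and 0.25 with CMS and 0.58, 0.55 and 0.59 in controls. The areas differed far more from each other than CMS from control. The treatments lay apart within each area, as the choice of shared probe sets required, and the main effect of Fxyd7 had an adjusted p of 2.21e-08. Nearest the threshold of an adjusted p of 0.05 among all probe sets, whether shared or not, stood Man1a2 at 0.15, Tmcc1 at -0.27, Marchf6 at 0.17 and Aifm2 at -0.14. Of the lower genes Imp4 was called by 1 of 3 probe sets and Dnajb1 by 1 of 2. The smallest shared change with a gene symbol was that of Pura, a nucleic acid binding protein of neurons, at 0.09 ± 0.0165, followed by Metrn at -0.09 and Akr1a1 at 0.09.

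**Figure D5:**
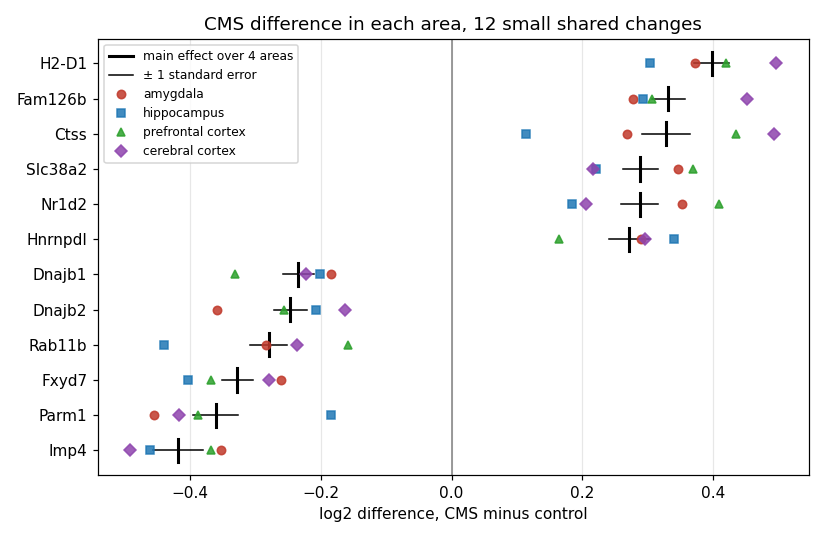
Log2 difference between CMS and control in each of 4 areas for the 12 genes with the smallest adjusted p among shared probe sets under 0.5 in every area, with the main effect (black bar) and ± 1 standard error. The upper 6 lie right of 0 and the lower 6 left of 0 in every area, with main effects between 0.27 and 0.40 and between -0.42 and -0.24.

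Changes of this size stand beside shifts of the arrays themselves. The mean of the hybridisation controls, bacterial RNAs added in fixed amounts, was 0.75 to 0.91 on CMS arrays and 0.01 to 0.03 on control arrays of amygdala. It was -1.55 to -1.52 with CMS and -1.16 to -1.0 in controls for hippocampus, 0.09 to 0.17 with CMS and -0.26 to -0.10 in controls for prefrontal cortex, and -0.08 to 0.04 with CMS and 0.02 to 0.25 in controls for cerebral cortex. The poly-A controls did not overlap in any area and were higher with CMS in amygdala and prefrontal cortex and lower in hippocampus and cerebral cortex. The 3 prime minus 5 prime difference of Actb, a sign of RNA integrity, was higher with CMS in the amygdala and lower in the other areas, with no overlap in any. The 3 prime minus middle difference of Actb was lower with CMS in every area, averaging -0.05 with CMS and 0.22 in controls for amygdala, -0.54 and -0.52 for hippocampus, where arrays overlapped, 0.04 and 0.28 for prefrontal cortex, and -0.44 and 0.16 for cerebral cortex. The 3 prime minus middle difference of Gapdh did not move alike in every area. It was lower with CMS, without overlap, in hippocampus and cerebral cortex. Arrays overlapped in amygdala (0.05 with CMS and 0.02 in controls) and in prefrontal cortex (-0.08 and -0.08). The part of RNA integrity in the shared changes was not tested. With each array centred on its median, all 36 probe sets of the largest and the small sets were called again and 35 again had no overlap in any area, the exception being Dnajb1. These 36 were picked by size or adjusted p in the same values, and of all 299 shared probe sets 223 were again shared.

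Several genes were shared by more than 1 probe set. Probe sets of a gene were read on the same arrays and some may share signal, so their agreement is not independent evidence. Besides those named, Kitl, Zfp207, Ankrd12, Ttc14 and Ociad2 were higher by 2 probe sets each, and Pvr, Ipo9, R3hdm4, Ank2 and Tob2 lower by 2 each. Tob2, an anti-proliferative relative of Btg2, stood at -0.47 and -0.59, and Pvr, the poliovirus receptor, at -0.57 and -0.67. Zfp207 stood at 0.46 and 0.52 with 3 of its 6 probe sets called. Other probe sets of a gene could have main effects of the opposite sign, as far as -0.22 for Ankrd12, -0.13 for Ttc14, -0.07 for Kitl, 0.22 for R3hdm4 and 0.13 for Ank2.

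Of the 299 shared probe sets, 180 (60.2%) had a CMS effect that differed in size between areas (adjusted p under 0.05), near the 55% of all probe sets tested. With each array centred on its median the counts were 169 (56.5%) of the shared and 32.5% of all. Among the 168 higher, the largest difference lay in the cerebral cortex for 68, the amygdala for 57, the hippocampus for 27 and the prefrontal cortex for 16. Among the 131 lower it lay in the amygdala for 55, the cerebral cortex for 38, the prefrontal cortex for 20 and the hippocampus for 18. The median size of the higher was 0.65 for cerebral cortex, 0.51 for amygdala, 0.43 for hippocampus and 0.33 for prefrontal cortex. That of the lower was 0.39 for amygdala, 0.32 for cerebral cortex, 0.30 for prefrontal cortex and 0.25 for hippocampus. A main effect can also be called without being shared. Ttr, the thyroxine and retinol carrier made by the choroid plexus, was called lower by all 4 of its probe sets, from -4.72 to -4.14, but in the hippocampus they differed by 0.05 to 0.17 in the other direction.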

How the data were processed

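RNA of 4 brain areas was hybridised to 24 Affymetrix Mouse Genome 430 2.0 arrays, 12 CMS and 12 control. The authors processed the scans with GCRMA in GeneSpring and deposited log2 values, which in the table are centred on the median of each probe set. No absolute level or read depth can be had from them, and the number of arrays limits the precision. Of 45101 probe sets, 64 Affymetrix controls were left out. Of the 45037 tested, 34945 had 1 gene symbol in the platform annotation, 932 several and 9160 none, and no gene was named from a probe set with several.

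The main effect was fitted with limma 3.58.1 in R 4.3.3 (lmFit and eBayes, two-sided, Benjamini-Hochberg over all probe sets), with area and treatment as additive terms. A difference of the CMS effect between areas therefore stayed in the spread behind its standard errors and p-values. The difference between areas was limma's F over the area by treatment terms of a fit of 8 group means. Gene values are means of the probe sets with that symbol, fitted likewise over 18193 genes. Fits were tested on simulated data. Tables and figures were made in Python 3.11.15 with pandas 2.3.3 and matplotlib 3.10.9.

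The genes named were the 12 highest and 12 lowest by the smallest difference reached in every area, the 6 higher and 6 lower small changes with the smallest adjusted p, genes with at least 2 shared probe sets, up to 4 called members of each list (up to 2 with the largest effect where none was called), and Ttr, S100a8, S100a9, Npas4, Hspa8, Fos and Arc. Other list members named were chosen after their values were seen. Members and lists were chosen with earlier results of these data known. Alternatives were other normalizations, filters, tests, designs, blocks and thresholds, and leaving out each array and each area.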

Additional observations from a re-analysis of the deposited data

Results flagged for a closer look

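Many shared genes kept their direction but differed in size between areas by limma's test of the difference between areas. This held for 180 of the 299 shared probe sets, near the 55% of all probe sets. Among the increases the adjusted p was 0.000777 for S100a8, 4.31e-09 for S100a9, 0.00159 for Vwf, 1.27e-08 for Ntmt1, 0.00091 for Lyz2, 0.00112 for Lyz1, 6.1e-05 for Luc7l2, 0.0279 for Malat1, 0.00435 for Nr1d2 and 3.59e-05 for Ctss. Among the activity-induced genes it was 7.54e-06 for Fos, 0.000134 for Fosb, 8.99e-06 for Nr4a1, 8.46e-05 for Fosl2, 0.0109 for Ier2, 0.003 for Arc, 0.00843 for Ccn1 and 0.0162 for Tiparp. Among the chaperones it was 0.0184 for the strongest Hspa8 probe set, 0.00167 and 0.0432 for a pair of its other probe sets, and 0.0403 for Dnajb2. It was 0.0263 for Parm1 and 0.0012 for Rab11b. For Ttr, whose hippocampal arrays did not move with those of the other areas, it was 1.06e-10, 5.08e-17, 1.2e-17 and 8.19e-11 at its 4 probe sets.

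Control probe sets, which the comparisons leave out, also read higher with CMS in some areas. The hybridisation controls averaged 0.83 on CMS arrays and 0.02 on control arrays in the amygdala, and 0.13 and -0.19 in the prefrontal cortex. The poly-A controls averaged 0.44 on CMS arrays and 0.27 on control arrays in the amygdala, and 0.02 and -0.44 in the prefrontal cortex (n = 3 each). They were lower with CMS in hippocampus (-3.46 with CMS and -3.36 in controls) and cerebral cortex (0.03 and 0.40), as were the hybridisation controls in hippocampus (-1.53 and -1.10). Their part in the shared changes was not tested. Groups of 3 arrays were too small to be tested for outlying arrays.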

How the results depend on the processing

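No call among the 44 named probe sets reversed. Of their 657 values under alternatives 653 kept direction and side of the threshold, 3 gained and 1 lost a call, all of them at weaker Hspa8 probe sets. Of the 44, 36 were chosen from these same values because they were called without overlap in every area. Their calls could hardly change, so these counts do not measure robustness. Counts moved with the design. Called probe sets numbered 1318 higher and 1459 lower, but 3427 and 3505 with 8 group means, where differences between areas leave the spread. They numbered 2698 and 2812 with values averaged over areas. With treatment and replicate number as a random block they numbered 4281 and 4894, with 1510 and 1937 of the same sign in all areas. The correlation within these blocks was negative (-0.182), which makes the standard error of the CMS effect smaller. The larger counts therefore do not show that allowing for the mouse strengthens the calls. With the replicate number as a fixed block the called probe sets were 1130 and 1273, and the shared counts stayed at 168 and 131. No pairing by replicate number was assumed. Of 36 same-numbered pairs within a treatment, 1 had a correlation of deviations over 0.1 (mean -0.0192). This cannot show whether same-numbered arrays share a mouse, since the spread within a group may come from the arrays rather than the mice. Over genes in place of probe sets the counts were 637 and 936 called, 404 and 662 of the same sign, and 62 and 86 without overlap. Of probe sets, those past 1.5-fold numbered 259 and 82 called, 191 and 58 of the same sign, and 73 and 25 without overlap, and those past 2-fold 47 and 21, 45 and 12, and 28 and 9.

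Counts without overlap grow when an area is left out, since fewer areas must agree. Without the hippocampus they were 509 higher and 374 lower, with 1567 higher of the same sign, without the prefrontal cortex 524 and 399, without the cerebral cortex 287 and 319, and without the amygdala 315 lower. The difference between areas was called for 14645 probe sets with arrays centred on their medians and 15467 after quantile normalization, against 24785 as deposited. Leaving out each array in turn gave 1074 to 1420 called higher and 1190 to 1625 lower, 771 to 963 and 912 to 1200 of the same sign, and 172 to 206 and 136 to 169 without overlap. The counts without overlap all exceed the 168 and 131 of the full data. Fewer arrays must then lie apart, so these ranges do not measure robustness. Of the 299 shared probe sets 218 were shared again after quantile normalization, where 329 were shared, and 223 with centred arrays, where 267 were shared. Whether the arrays come from 3 mice a treatment or from pooled RNA limits what the p-values cover.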

Other observations

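Klotho (Kl), an anti-ageing hormone of the choroid plexus, was lower by 0.94 on the log2 scale in the main effect. Alone of 20 choroid plexus genes it had no overlap in any area, but the gap was uneven. In the hippocampus it was narrow, with CMS arrays at 1.84 to 1.91 and controls at 1.92 to 2.01. The gap was wider in prefrontal cortex (-1.06 to -1.04 with CMS, -0.18 to 0.01 in controls) and widest in cerebral cortex. Of the 20 choroid plexus genes 5 were lower and 1 was higher, and the list's median was 0.13 for hippocampus and -1.68 for cerebral cortex. Of 20 meninges and fibroblast genes 5 were higher and 1 lower, with a median of 0.50 for amygdala and -0.13 for hippocampus, and 0 had no overlap in all areas. Without the amygdala or without the cerebral cortex 0 of them were higher, and without the hippocampus 10. Over all genes 3.5% were higher and 5.14% lower with all areas in the fit, and no such share is given with an area left out.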
